A study of Mus musculus with 6 samples.

Results

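The core enzymes of mitochondrial fatty acid beta-oxidation were followed at the mRNA level in mouse kidneys with and without induced adiponectin. The 10 genes, *Cpt1a*, *Cpt2*, *Acadvl*, *Acadl*, *Acadm*, *Acads*, *Echs1*, *Hadh*, *Hadha* and *Hadhb*, were chosen by name as the carnitine palmitoyltransferases, the chain-length acyl-CoA dehydrogenases and the enzymes of the later steps. All 10 were found among the 54532 genes of the deposited table, each as a protein-coding gene of GENCODE M21 (GRCm38), and all 10 passed the filter on low counts that left 16017 genes for testing. Control kidneys came from KsprtTA mice, which carry the reverse tetracycline transactivator (rtTA) under the Ksp-cadherin promoter. KSPAPN kidneys came from mice that carry KsprtTA together with TRE-Adiponectin, so that doxycycline switches on adiponectin in the epithelium of the tubule, proximal segments and collecting duct included. Both groups were male mice on a C57BL/6 background that ate chow with 600 mg/kg doxycycline for 4 days, and their age is not given in the sources used here. Each group had 3 libraries of whole-kidney mRNA, each from the pooled RNA of 3 mice, so libraries of a group differ as pools of mice do. Total counts were between 17183358 and 20871173 per library. The labels call the Control genotype WT, and name liver in the description of how RNA was extracted. The proximal tubule phosphate transporter *Slc34a1* had a mean of 1149 FPKM over the 6 libraries, while the hepatocyte gene *Alb* was at 4.46 FPKM or less in every library. *Adipoq*, the induced gene, had 2, 0 and 2 counts in Control replicates 1 to 3 and 24629, 17483 and 26811 counts in KSPAPN replicates 1 to 3.

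Beta-oxidation shortens a fatty acid inside mitochondria by repeated removal of acetyl-CoA. Long chains enter as carnitine esters, and each round then runs through an acyl-CoA dehydrogenase, an enoyl-CoA hydratase, a 3-hydroxyacyl-CoA dehydrogenase and a thiolase. Proximal tubule cells, which have many mitochondria and little glycolysis, draw much of their ATP from this pathway.

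Medium-chain acyl-CoA dehydrogenase (*Acadm*) and short-chain enoyl-CoA hydratase (*Echs1*) fell in KSPAPN kidneys, to 0.608-fold and 0.722-fold of Control. These were 2 of 10 enzymes lower at an adjusted p under 0.05 in edgeR's quasi-likelihood test, against 2.25% of all genes tested. None of the 10 was higher, against 0.393% of all genes tested, and none was higher at an unadjusted p under 0.05, against 7.52% of all genes tested. DESeq2 and limma also called none of the 10 higher. At an unadjusted p under 0.05, 5 of 10 were lower, against 11.2% of all genes tested. In the same 5 enzymes every KSPAPN library lay below every Control library in FPKM (fragments scaled to gene length and library size), against 13.5% of all genes tested. The median log2 fold change of the 10 enzymes was -0.27, beside 0.01 over all genes tested, and came to -0.16 beside 0.04 with an offset for GC content and length. All 10 values were below 0, as were 48.1% of all genes tested, and 4 of the 10 turned above 0 with total counts only. In whole kidney, fewer cells of a type and less RNA per cell cannot be told apart.

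**Figure D1:**
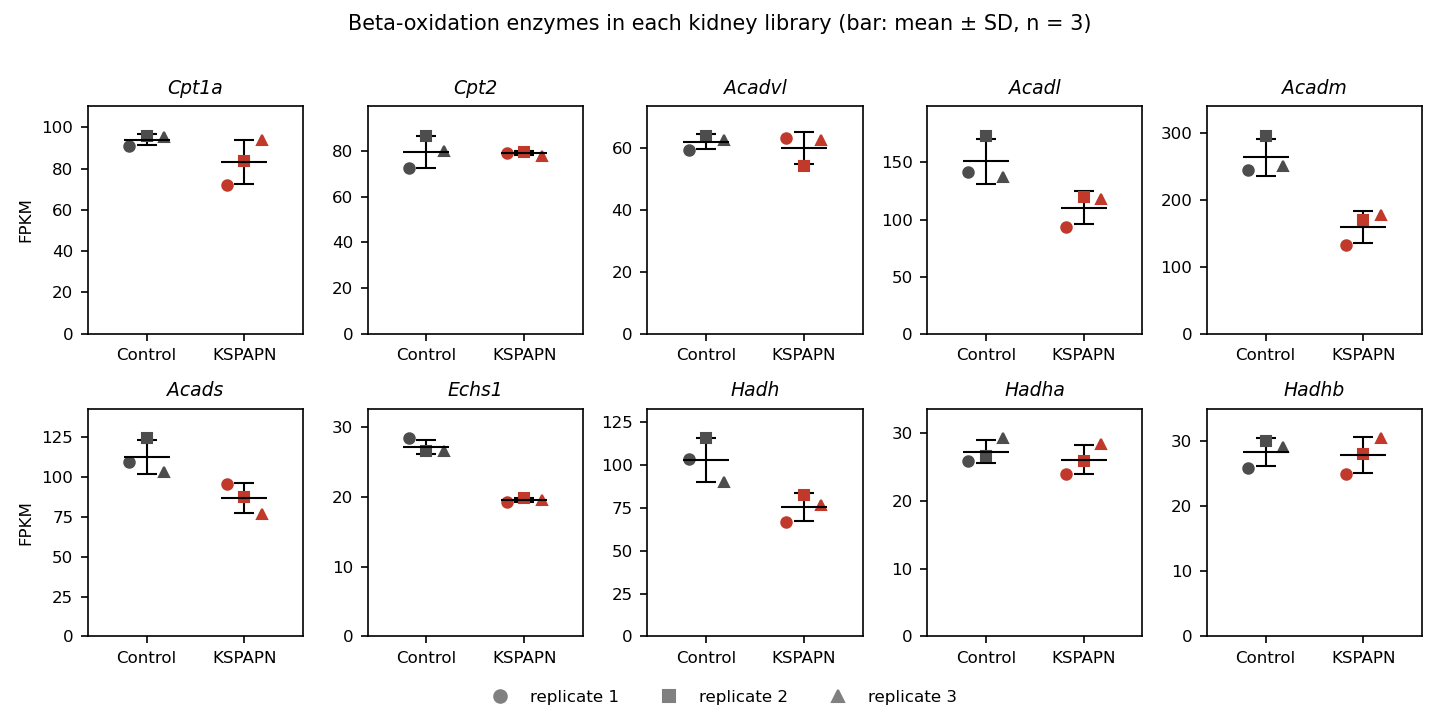
FPKM of the 10 enzymes (vertical axes, each from 0) in the 3 Control and 3 KSPAPN libraries, with marker shapes for the replicates and bars for the mean and SD. The groups separate for *Acadl*, *Acadm*, *Acads*, *Echs1* and *Hadh* and overlap for the other 5 enzymes.

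Carnitine palmitoyltransferase 1A (*Cpt1a*, chr19:3322334-3385733), on the outer mitochondrial membrane, makes the acylcarnitine and is the point of control by malonyl-CoA. Its FPKM was 90.9, 96.0 and 95.4 in Control replicates 1 to 3 and 72.2, 83.6 and 93.8 in KSPAPN replicates 1 to 3. KSPAPN replicate 1 was low, and KSPAPN replicate 3 lay within the Control range, so the groups overlapped. The log2 fold change was -0.17 ± 0.11 (SE; 95% interval -0.41 to 0.06; adjusted p 0.413 in edgeR), and came to -0.07 without KSPAPN replicate 1 and -0.26 without KSPAPN replicate 3. *Cpt2* (chr4:107903981-107923610), on the inner membrane, turns the carnitine ester back into acyl-CoA. It had 72.7, 86.8 and 80.1 FPKM in the Control libraries and 79.4, 79.8 and 78.1 FPKM in the KSPAPN libraries, all 3 of the latter inside the Control range. Its log2 fold change of -0.01 had a 95% interval from -0.21 to 0.20, and its sign turned with other scaling (0.06 with total counts only, 0.11 with an offset for GC content and length).

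The acyl-CoA dehydrogenases take the first hydrogens off acyl-CoA of different chain lengths. *Acadvl* (chr11:70010183-70015411), the very long-chain enzyme bound to the inner membrane, had 59.4, 64.1 and 62.9 FPKM in the Control libraries and 63.4, 54.3 and 62.7 FPKM in the KSPAPN libraries. The groups overlapped, and the log2 fold change was -0.04 (95% interval -0.25 to 0.17), turning to 0.03 with total counts only and 0.09 with the offset for GC content and length. *Acadm* (ENSMUSG00000062908, chr3:153922357-153944632), the medium-chain enzyme of the matrix, had 245, 296 and 251 FPKM in the Control libraries and 133, 170 and 177 FPKM in the KSPAPN libraries. The highest KSPAPN library was thus well under the lowest Control library. *Acadm* had the largest change of the 10 enzymes, a log2 fold change of -0.72 ± 0.13 (SE; 95% interval -1.0 to -0.43; adjusted p 0.0214).

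The call for *Acadm* depended on which libraries entered the fit, with adjusted p 0.0765 when Control replicate 1 was left out, 0.0745 when it was Control replicate 2 and 0.0719 when it was KSPAPN replicate 3, at log2 fold changes of -0.77, -0.63 and -0.79. It was also lost with limma on log2(FPKM + 1), at an adjusted p of 0.0615, where the fold change was -0.72. Over the 10 settings that kept all libraries its adjusted p ran from 2.95e-09, in edgeR without the filter on low counts, to 0.0615. DESeq2 gave 1.24e-05, and the other edgeR settings gave between 0.00933 and 0.0241.

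The long-chain enzyme *Acadl* (chr1:66830839-66863277) had 142, 173 and 137 FPKM in the Control libraries and 93.5, 120 and 118 FPKM in the KSPAPN libraries. The groups did not overlap, but its log2 fold change of -0.45 ± 0.12 missed the threshold at an adjusted p of 0.0869. The short-chain enzyme *Acads* (chr5:115110299-115119346) had 109, 124 and 103 FPKM in the Control libraries and 95.7, 87.4 and 76.8 FPKM in the KSPAPN libraries. Here KSPAPN replicate 3 was the lowest library, where KSPAPN replicate 1 was the lowest for *Acadl* and *Acadm*. The log2 fold change of *Acads* was -0.37 ± 0.11 (adjusted p 0.113) and came to -0.17 with the offset for GC content and length. In edgeR *Acads* passed the threshold without the filter (adjusted p 0.018) and without KSPAPN replicate 1 (log2 fold change -0.44, adjusted p 0.0466). *Acadl* passed the threshold with DESeq2 (adjusted p 0.0248) and with the offset for GC content and length (adjusted p 0.045). Over the 10 settings that kept all libraries its adjusted p was between 0.0014, in edgeR without the filter, and 0.141, with limma.

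Stretches before the RefSeq starts (GRCm38.p6) of *Acadm* and *Echs1*, which fell, and of *Acadvl*, which did not pass the test, are shown because all 3 hold the letters AGGTCA, the core recognized by many nuclear receptors. The search covered both strands of the 250 bases before the start, and RefSeq had an entry for each of the 10 genes. AGGTCA was found before 4 of the 10 genes (*Acadm* and *Echs1*, which fell, and *Acadvl* and *Cpt1a*, which did not pass) and in 14% of 32851 promoters of the same length, and whether it goes with the change was not tested. The stretch before *Cpt1a* is not shown. The longer AAGGTCA, which contains AGGTCA, was found before *Acadm* alone of the 10 and in 4.08% of all promoters. The direct repeat AGGTCANAGGTCA was before none of the 10 and in 0.0335% of all promoters. The stretches lie at chr3:153944644-153944893 for *Acadm*, chr7:140116477-140116671 for *Echs1* and chr11:70015429-70015678 for *Acadvl*, all on the minus strand and outside annotated exons, and read 5′ to 3′ with AGGTCA or its reverse complement in capitals.
Acadm: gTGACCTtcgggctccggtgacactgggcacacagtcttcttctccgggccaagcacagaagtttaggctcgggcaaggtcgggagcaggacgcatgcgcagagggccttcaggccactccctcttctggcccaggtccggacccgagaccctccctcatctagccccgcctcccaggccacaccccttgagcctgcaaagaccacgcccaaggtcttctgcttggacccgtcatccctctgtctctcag
Echs1: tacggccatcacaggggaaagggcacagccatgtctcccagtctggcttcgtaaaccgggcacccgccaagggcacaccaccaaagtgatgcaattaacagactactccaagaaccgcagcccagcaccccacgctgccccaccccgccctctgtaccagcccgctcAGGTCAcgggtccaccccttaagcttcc
Acadvl: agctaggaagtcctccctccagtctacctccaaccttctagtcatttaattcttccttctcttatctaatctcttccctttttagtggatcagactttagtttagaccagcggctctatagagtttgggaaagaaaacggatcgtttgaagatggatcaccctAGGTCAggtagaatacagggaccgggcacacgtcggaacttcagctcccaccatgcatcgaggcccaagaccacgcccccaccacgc

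*Echs1* (ENSMUSG00000025465, chr7:140105710-140116476) adds water to the short enoyl-CoA in the matrix. It had 28.4, 26.6 and 26.5 FPKM in the Control libraries and 19.3, 19.8 and 19.5 FPKM in the KSPAPN libraries. No other enzyme of the 10 was as far apart relative to its spread, with coefficients of variation of 3.8% in Control and 1.33% in KSPAPN. The log2 fold change was -0.47 ± 0.08 (SE; 95% interval -0.65 to -0.29; adjusted p 0.0197), and the adjusted p was under 0.05 in all 10 settings that kept the 6 libraries, at most 0.0488. With 1 library fewer the fold change stayed between -0.44 and -0.49, but the call was lost without Control replicate 1 (adjusted p 0.106), Control replicate 2 (0.0626), Control replicate 3 (0.0526), KSPAPN replicate 2 (0.0543) or KSPAPN replicate 3 (0.102). *Paox* on the opposite strand overlaps the span of *Echs1* by 678 bases, and had at most 256 counts in a library and a log2 fold change of 0.12 (adjusted p 0.709).

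*Hadh* (chr3:131233419-131272101), the short-chain 3-hydroxyacyl-CoA dehydrogenase of the matrix, had 103, 116 and 89.9 FPKM in the Control libraries and 66.8, 82.8 and 76.6 FPKM in the KSPAPN libraries. Its groups did not overlap, with KSPAPN replicate 2 close under Control replicate 3. The log2 fold change of -0.44 ± 0.12 had an adjusted p of 0.0771 in edgeR and of 0.0151 in DESeq2. Over the settings that kept all libraries the adjusted p ran from 0.00138, in edgeR without the filter, to 0.121, with limma.

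*Hadha* and *Hadhb* encode the alpha and beta subunits of the mitochondrial trifunctional protein, an inner-membrane complex that carries out the last 3 steps on long chains. *Hadha* (chr5:30118304-30155162) had 25.9, 26.7 and 29.3 FPKM in the Control libraries and 24.1, 26.0 and 28.4 FPKM in the KSPAPN libraries. *Hadhb* (chr5:30155248-30184593) had 25.8, 30.0 and 29.1 FPKM in the Control libraries and 24.9, 28.1 and 30.4 FPKM in the KSPAPN libraries. Both sets of values overlapped, and the log2 fold changes were -0.06 (95% interval -0.27 to 0.15) for *Hadha* and -0.02 (95% interval -0.25 to 0.20) for *Hadhb*. With total counts only they were 0.01 and 0.05, and with the offset for GC content and length *Hadha* came to -0.01 and *Hadhb* to -0.16.

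The genes of these subunits stand head to head, with *Hadha* on the minus strand and *Hadhb* on the plus strand, and 85 bases lie between their annotated exons (272 between their RefSeq starts). That stretch, chr5:30155163-30155247 on the plus strand, is shown because it lies before both genes. Their FPKM ratio was between 0.891 and 1.01 in every library. The ratio of their counts was between 1.18 and 1.33, so the level of the ratio depends on the gene lengths used. The capitals mark GGGCGG, the GC box. On either strand of the 250 bases before the start, GGGCGG was found for 8 of the 10 genes, all but *Acadm* and *Acadvl*, and in 32.7% of all promoters. The windows of *Hadha* and *Hadhb* overlap, and the box at the start of the stretch counts for both. The median GC content was 59.6% in the windows of the 10 genes and 52.4% in all promoters.
Hadha-Hadhb: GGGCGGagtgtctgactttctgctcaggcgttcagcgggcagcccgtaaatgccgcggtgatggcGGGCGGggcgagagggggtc

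The enzymes that lay near 0 and those that lay lower differ in where the protein sits, a grouping that was made after the values were seen and was not tested. The 5 enzymes on mitochondrial membranes, *Cpt1a*, *Cpt2*, *Acadvl*, *Hadha* and *Hadhb*, had log2 fold changes from -0.17 to -0.01 with a median of -0.04, and all 5 overlapped between groups. The 5 matrix enzymes, *Acadl*, *Acadm*, *Acads*, *Echs1* and *Hadh*, lay between -0.72 and -0.37 with a median of -0.45, and none overlapped. With the offset for GC content and length the 2 ranges came close, with *Acads* at -0.17 beside *Hadhb* at -0.16. The membrane enzymes act on long chains, while the matrix enzymes also handle medium and short chains. Summed FPKM of the matrix enzymes was 628, 736 and 608 in the Control libraries and 408, 480 and 468 in the KSPAPN libraries. For the membrane enzymes the sums were 275, 303 and 297 in the Control libraries and 264, 272 and 293 in the KSPAPN libraries.

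**Figure D2:**
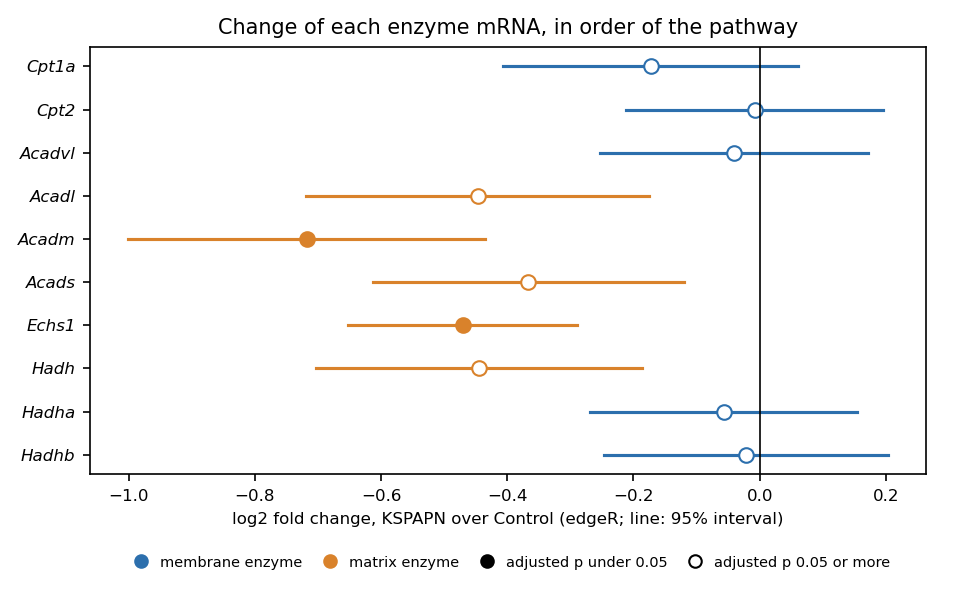
Log2 fold change of KSPAPN over Control (horizontal axis) with its 95% interval for each enzyme, in the order of the pathway, from edgeR. Filled points, *Acadm* at -0.72 and *Echs1* at -0.47, had an adjusted p under 0.05, and the matrix enzymes in orange lie left of the membrane enzymes in blue, of which 4 turn sign with total counts only.

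Ratios of enzymes within a library do not depend on how libraries are scaled. *Acadvl*/*Acadm* was 0.243, 0.217 and 0.251 in the Control libraries and 0.478, 0.319 and 0.355 in the KSPAPN libraries. All 3 KSPAPN libraries were above all 3 Control libraries, a difference of 0.68 in log2 ratio, with KSPAPN replicate 1 the highest (two-sided exact permutation p 0.1, the smallest that 3 against 3 can give; adjusted p 0.267 over 8 pairs). Groups also separated for *Acadl*/*Acadm*, at 0.581, 0.586 and 0.548 against 0.705, 0.704 and 0.667, and for *Acadvl*/*Acads*, at 0.544, 0.517 and 0.609 against 0.662, 0.621 and 0.816. Both had an exact permutation p of 0.1 and an adjusted p of 0.267. No pair could reach an adjusted p under 0.05 in a design of this size.

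The other pairs overlapped. *Hadha*/*Hadhb* was between 0.891 and 1.01 in the Control libraries and between 0.925 and 0.967 in the KSPAPN libraries, with a difference in log2 ratio of -0.04 (exact permutation p 0.6; adjusted p 0.686), between -0.09 and -0.01 with 1 library left out, and it turned to 0.15 with the offset for GC content and length. *Cpt1a*/*Cpt2* was 1.25, 1.11 and 1.19 against 0.909, 1.05 and 1.2, a log2 difference of -0.17 (exact permutation p 0.3; adjusted p 0.4). *Acadvl*/*Acadl* and *Acadm*/*Acads* differed by 0.40 and -0.35 in log2 ratio, each at an exact permutation p of 0.2 and an adjusted p of 0.32. Without KSPAPN replicate 1 the differences were 0.25 for *Acadvl*/*Acadl*, -0.15 for *Acadm*/*Acads* and -0.07 for *Cpt1a*/*Cpt2*, and without KSPAPN replicate 3 *Cpt1a*/*Cpt2* came to -0.28. *Acadl*/*Acads* differed by -0.08 (exact permutation p 0.9; adjusted p 0.9), by 0.11 without KSPAPN replicate 1, by -0.21 without KSPAPN replicate 3 and by -0.24 with the offset for GC content and length.

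**Figure D3:**
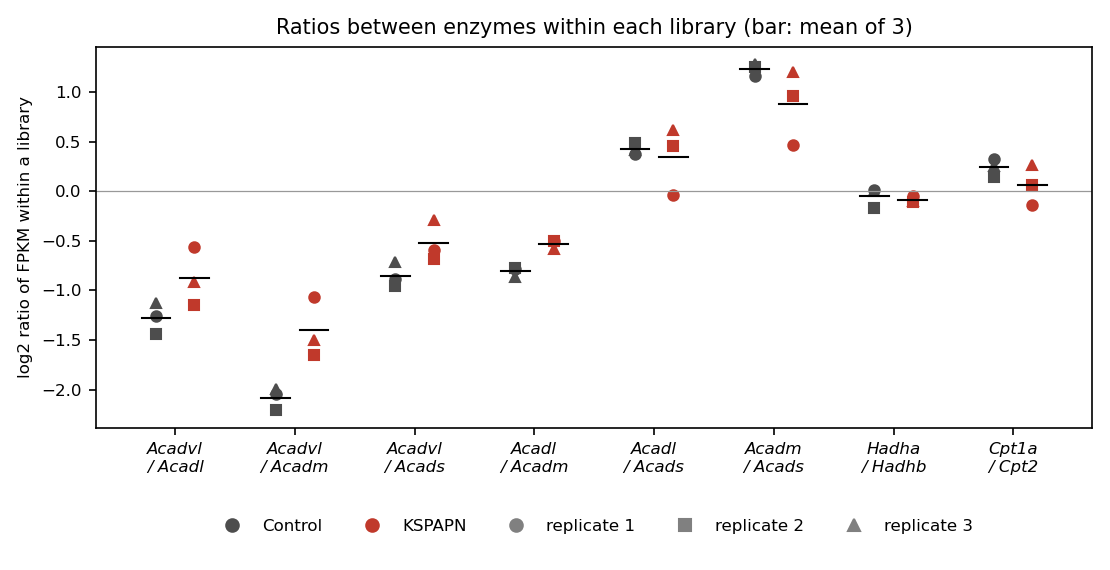
Log2 ratio of FPKM between 2 enzymes within each library (vertical axis) for the 8 pairs, with Control in gray, KSPAPN in red, marker shapes for the replicates and bars for the mean of 3 libraries. The groups separate for *Acadvl*/*Acadm*, *Acadvl*/*Acads* and *Acadl*/*Acadm*, and KSPAPN replicate 1 is apart from the other 2 KSPAPN libraries in *Acadm*/*Acads*.

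On the FPKM scale, mean Control levels ran from 264 ± 28.1 (SD, n = 3) for *Acadm* over 151 ± 19.5 for *Acadl*, 112 ± 10.7 for *Acads*, 103 ± 12.9 for *Hadh*, 94.1 ± 2.81 for *Cpt1a*, 79.9 ± 7.03 for *Cpt2* and 62.1 ± 2.42 for *Acadvl* to 28.3 ± 2.21 for *Hadhb*, 27.3 ± 1.74 for *Hadha* and 27.2 ± 1.03 for *Echs1*. In this order *Acads* overlapped *Hadh*, *Hadh* overlapped *Cpt1a*, and *Hadhb*, *Hadha* and *Echs1* overlapped among themselves, while the other neighbours did not overlap. In KSPAPN libraries *Acadm* was still the highest at 160 ± 23.9 FPKM, and *Hadh* moved from place 4 to place 6 of the 10. Among protein-coding genes *Acadm* was at place 125 by mean FPKM in Control and 192 in KSPAPN. The FPKM of *Echs1*, *Hadha*, *Acadm* and *Hadhb* correspond to gene lengths of 8455, 8908, 3993 and 6729 bases, over 1.5 times their longest annotated transcripts of 4088, 4017, 2047 and 4388 bases. Levels of these 4 genes beside the others are therefore understated if most mRNA comes from shorter transcripts, which does not bear on the comparison of groups.

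The libraries did not rank alike for all enzymes. Control replicate 2 was the highest of the 6 libraries for 7 of the 10 enzymes, and KSPAPN replicate 1 the lowest for 7 of the 10. Control replicate 2 was also the highest for 6 of 12 proximal tubule markers and 8 of 15 peroxisomal genes, and the lowest for all 6 glomerular markers. Over all genes KSPAPN replicate 1 was apart from the other 2 KSPAPN libraries, with a chi-square per gene of 35.9 and 26.7 against KSPAPN replicates 2 and 3, beside 11 between those 2 and 14.3 to 18.2 between Control libraries. It was also the lowest of the 6 libraries for 10 of 12 proximal tubule markers, and the collecting duct water channel *Aqp2* was at 537 FPKM in it, beside 242 and 227 FPKM in the other KSPAPN libraries and 356, 278 and 257 FPKM in the Control libraries. For 4 of 5 tubular injury markers it was the highest of the 6 libraries, with a sum of 4.83 FPKM beside 2.40 to 3.72 FPKM in the others. The part of this library in the lower enzyme values was not tested beyond the fits without it. Summed FPKM of all 10 enzymes was 903, 1039 and 905 in the Control libraries and 672, 752 and 761 in the KSPAPN libraries, a ratio of means of 0.767. As a share of all counts the 10 genes held 0.342%, 0.368% and 0.345% in the Control libraries and 0.275%, 0.281% and 0.298% in the KSPAPN libraries, a ratio of 0.809.

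Of 12 proximal tubule markers, 11 had a log2 fold change below 0, with a median of -0.24, 2 of 12 were lower at an adjusted p under 0.05 and 3 at an unadjusted p under 0.05 in edgeR, and 9 of 12 overlapped between groups. The 2 that passed the threshold were the organic anion transporter *Slc22a6* (log2 fold change -0.46 ± 0.10, adjusted p 0.0388) and *Slc7a13*, an amino acid transporter of the last proximal segment (-1.46 ± 0.28, adjusted p 0.0259). With total counts only *Slc7a13* alone passed, limma called none, DESeq2 called 3 and edgeR without the filter 4. The summed FPKM of the 12 markers was 3051, 2883 and 2585 in the Control libraries and 2232, 2253 and 2325 in the KSPAPN libraries, none was at 0 in any library, and *Slc34a1* was the most abundant. *Slc34a1* itself overlapped between groups, at 1368, 1145 and 1124 FPKM against 1185, 980 and 1091 FPKM.

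Divided by that marker sum, a comparison chosen after the values were seen, the 10 enzymes together came to 29.6%, 36.0% and 35% in the Control libraries and 30.1%, 33.4% and 32.7% in the KSPAPN libraries, and the groups overlapped. *Acadm* alone came to 8.02%, 10.3% and 9.70% against 5.94%, 7.55% and 7.61%, and *Echs1* to 0.930%, 0.923% and 1.03% against 0.863%, 0.878% and 0.840%, both still without overlap. *Cpt2* separated the other way, at 2.38%, 3.01% and 3.10% against 3.56%, 3.54% and 3.36%. Of all genes tested, 2.66% lay lower without overlap on this scale and 40.9% higher. The other 7 enzymes overlapped on this scale, with ratios of means from 0.912 to 0.965 for *Acadl*, *Acads* and *Hadh* and from 1.10 to 1.22 for *Cpt1a*, *Acadvl*, *Hadha* and *Hadhb*. The marker sum includes *Slc7a13*, which itself fell from a mean of 307 FPKM in Control to 111 FPKM in KSPAPN, and a sum without it was not computed. The part that the amount of proximal tubule RNA had in the lower enzyme mRNAs was not tested beyond these values.

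Of 11 thick ascending limb and distal nephron markers, 1 was higher, the cotransporter *Slc12a1* (log2 fold change 0.52 ± 0.11, adjusted p 0.0437), none was lower in edgeR (1 in DESeq2, 2 without the filter), and the median was 0.09 (0.15 with total counts only). At an unadjusted p under 0.05 in edgeR 3 were lower and 1 higher, the lower ones being *Slc4a1* (-0.71 ± 0.20, adjusted p 0.0893), *Slc12a3* (-0.36 ± 0.14, adjusted p 0.207) and *Aqp3* (-0.32 ± 0.12, adjusted p 0.196). In *Slc4a1* and *Slc12a3* every KSPAPN library lay below every Control library. *Slc12a1* did not pass with limma or with the offset for GC content and length. The summed FPKM of the 11 markers was 1628, 1429 and 1490 in the Control libraries and 1936, 1390 and 1455 in the KSPAPN libraries, with *Umod* the most abundant. All 6 glomerular markers had log2 fold changes above 0, with a median of 0.32, and none passed the threshold in edgeR, DESeq2 or limma (1 higher without the filter), with 1 higher and none lower at an unadjusted p under 0.05 in edgeR. *Ptpro*, which was not that marker, was at 0.52 ± 0.24 (unadjusted p 0.0535, adjusted p 0.277 in edgeR). Their summed FPKM was 56.4, 39.6 and 60.6 in the Control libraries and 57.3, 56.6 and 78.2 in the KSPAPN libraries, with *Podxl* the most abundant. Their part in the enzyme results was not tested.

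None of 5 endothelial, 5 immune, 8 adipocyte, 7 hepatocyte, 5 adrenal cortex or 5 tubular injury markers passed the threshold in edgeR, DESeq2 or limma, among which 5, 4, 4, 5, 1 and 3 were tested. At an unadjusted p under 0.05 in edgeR, the adipocyte marker *Cidea*, at 1.40 FPKM or less in every library, was higher and none was lower. The median log2 fold changes were 0.06 for endothelial, -0.07 for immune, 0.18 for adipocyte, -0.12 for hepatocyte and 0.47 for injury markers, and the adrenal gene tested, *Star*, was at 0.37. With the offset for GC content and length the endothelial and hepatocyte medians turned to -0.01 and 0.07 and the adipocyte median came to 0.41, with total counts only the immune median turned to 0.01 and the endothelial and hepatocyte medians came to 0.12 and -0.06, and with limma on log2(FPKM + 1) the injury median came to 0.19, the adipocyte median to 0.10 and *Star* to 0.21. The adipocyte markers summed to between 1.31 and 3.66 FPKM in every library, the adrenal enzymes *Cyp11b1* and *Cyp11b2* had no count in any library, and the injury markers summed to between 2.40 and 4.83 FPKM.

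Other genes of the mitochondrial pathway were taken list by list. Of the 7 genes of fatty acid activation and the carnitine shuttle, none passed the threshold in either direction in edgeR, DESeq2 or limma, none had an unadjusted p under 0.05 in edgeR, and the median log2 fold change was 0.06 (-0.05 with limma on log2(FPKM + 0.1), -0.01 with the offset for GC content and length). The carnitine importer *Slc22a5*, the most abundant of them, was at -0.23 ± 0.12 (adjusted p 0.347), carnitine acetyltransferase *Crat* at -0.09 and the brain form *Cpt1c*, under 1 FPKM in every library, at 0.25. Of 9 genes of other steps, all 9 were below 0 (7 with the offset for GC content and length), with a median of -0.20 (-0.13 with total counts only), and 2 were lower, *Acad9*, also an assembly factor of respiratory complex I, and *Acad10*. *Acad9* was at 11.2, 10.6 and 9.21 FPKM against 7.11, 7.41 and 7.63 FPKM (log2 fold change -0.48 ± 0.10, adjusted p 0.0304), and *Acad10* had a log2 fold change of -0.48 ± 0.09 (adjusted p 0.0269). Neither passed with total counts only or limma, and *Acad10* shares 7.98% of its 100-base stretches with *Acad12*.

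All 3 genes that carry electrons from the acyl-CoA dehydrogenases to the respiratory chain were below 0 and none passed the threshold in edgeR or limma, while 2 had an unadjusted p under 0.05 and DESeq2 and edgeR without the filter called *Etfa* lower. The electron transfer flavoprotein subunits *Etfa* and *Etfb* had log2 fold changes of -0.37 ± 0.10 (adjusted p 0.0763) and -0.39 ± 0.11 (adjusted p 0.0943), without overlap between groups. *Etfdh* was at -0.17 ± 0.10 (adjusted p 0.388), with overlap. Of 3 genes that set malonyl-CoA, the inhibitor of *Cpt1a*, malonyl-CoA decarboxylase (*Mlycd*) was lower, at 27.4, 27.5 and 24.3 FPKM against 19.6, 19.1 and 15.9 FPKM (log2 fold change -0.53 ± 0.11, adjusted p 0.0299), and the acetyl-CoA carboxylases *Acaca* and *Acacb* did not pass. *Mlycd* did not pass with total counts only, limma or the offset for GC content and length.

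Of 9 transcriptional regulators of beta-oxidation genes, none passed the threshold in edgeR or limma, 1, *Esrra*, was lower in DESeq2 and 2, *Esrra* and *Ppard*, in edgeR without the filter, 4 were lower and none higher at an unadjusted p under 0.05 in edgeR, and the median was -0.31 (-0.17 with limma on log2(FPKM + 1)). *Ppara*, the nuclear receptor that responds to fatty acids, was at 10.1, 10.5 and 10.1 FPKM against 7.73, 7.94 and 8.25 FPKM (log2 fold change -0.35 ± 0.09, adjusted p 0.078). *Esrra*, the most abundant, had a log2 fold change of -0.39 ± 0.11 (adjusted p 0.101), *Rxra* of -0.17, *Ppard* of -0.43 and the coactivator *Ppargc1b* of -0.55 ± 0.16 (adjusted p 0.0993), while *Ppargc1a* was at 0.11 (adjusted p 0.717). Of 15 *Ppara* targets outside the mitochondrial pathway, 13 were tested, 3 were lower and none higher, at a median of -0.43, and the same 3 passed with total counts only and limma, while DESeq2 called 5 lower and edgeR without the filter 7. The 3 were the fatty acid omega-hydroxylases *Cyp4a10* (-0.73 ± 0.10, adjusted p 0.00741) and *Cyp4a14* (-2.56 ± 0.32, adjusted p 0.00613) and the peroxisomal thiolase *Acaa1b* (-1.02 ± 0.12, adjusted p 0.00581). *Cyp4a14* was at 11, 25.1 and 9.97 FPKM against 2.62, 2.36 and 2.75 FPKM. *Acaa1b* shares 22.6% of its 100-base stretches with *Acaa1a*, and *Cyp4a10* 9.8% with *Cyp4a32*, so reads of these copies may be split.

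Genes of peroxisomal beta-oxidation, which shortens very long and branched chains, had log2 fold changes from -1.02 to 0.64. Of 15 genes, 14 were tested, 4 were lower and 1 was higher, with a median of -0.20 (-0.13 with total counts only). Besides *Acaa1b*, the lower genes were the branched-chain oxidase *Acox2* (-0.84 ± 0.14, adjusted p 0.0163), the racemase *Amacr* (-0.87 ± 0.15, adjusted p 0.018) and carnitine octanoyltransferase *Crot* (-0.76 ± 0.14, adjusted p 0.0248), which readies medium chains made in peroxisomes for mitochondria. The sterol carrier and thiolase *Scp2* was higher, at 281, 384 and 345 FPKM against 512, 570 and 490 FPKM (log2 fold change 0.64 ± 0.13, adjusted p 0.0311). It shares 32.2% of its 100-base stretches with the pseudogene *Scp2-ps2*, which had at most 148 counts in a library, and overlaps *Podn* on the same strand. With limma *Acaa1b* alone of the list passed. No test compared the peroxisomal list with the mitochondrial enzymes.

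**Figure D4:**
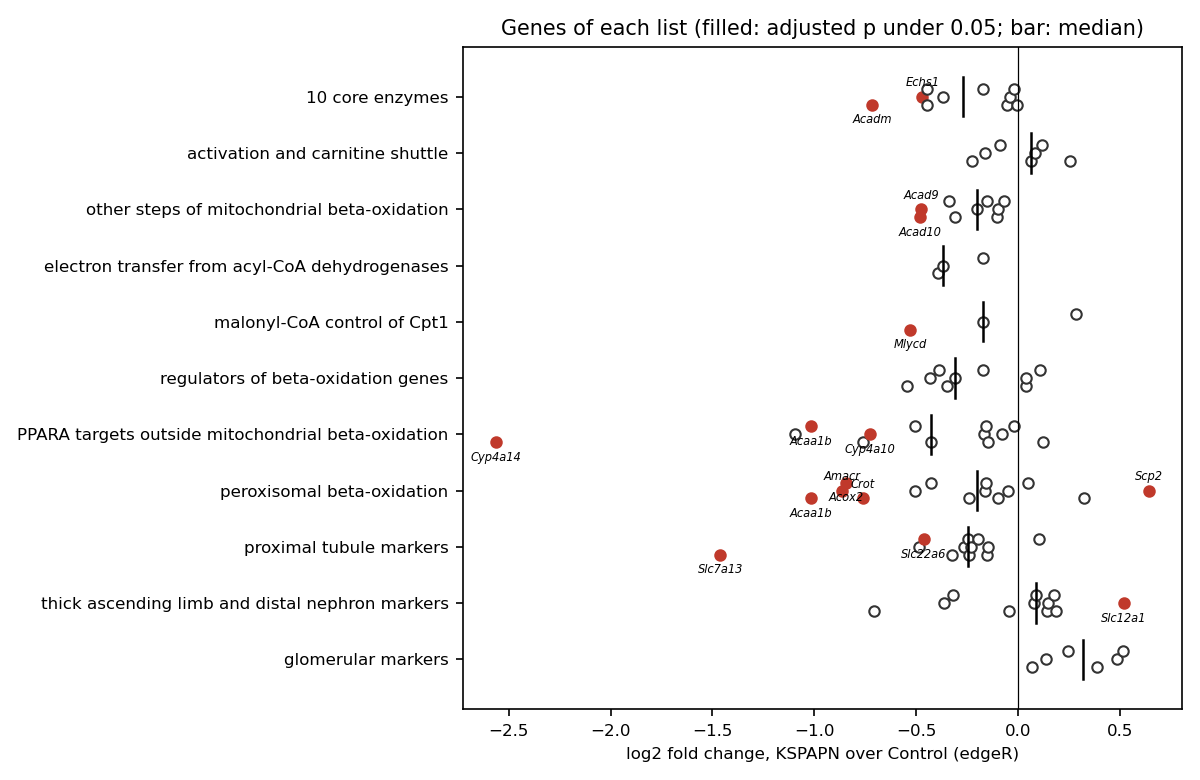
Log2 fold change of KSPAPN over Control (horizontal axis, edgeR) for every tested gene of each list, with bars for list medians and filled red points for genes with an adjusted p under 0.05. The 10 core enzymes have a median of -0.27, the carnitine shuttle genes of 0.06 and the electron transfer genes of -0.37 (-0.23 with the offset for GC content and length).

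The 5 genes outside the lists whose profile over the 6 libraries lay closest to the mean profile of the 10 enzymes were *Hgd*, *Tmem8*, *Prdx6*, *Bsdc1* and *2510002D24Rik*. Their root mean square differences from it in centred log2 CPM were between 0.0320 and 0.0364, beside a median of 0.221 over the 10970 genes compared. *Hgd*, homogentisate dioxygenase of tyrosine breakdown, had 154, 168 and 148 FPKM in the Control libraries and 122, 135 and 131 FPKM in the KSPAPN libraries (log2 fold change -0.27, adjusted p 0.143). The enzyme closest to the mean profile was *Cpt1a*, at 0.0885, and the farthest was *Acadm*, at 0.242.

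**Figure D5:**
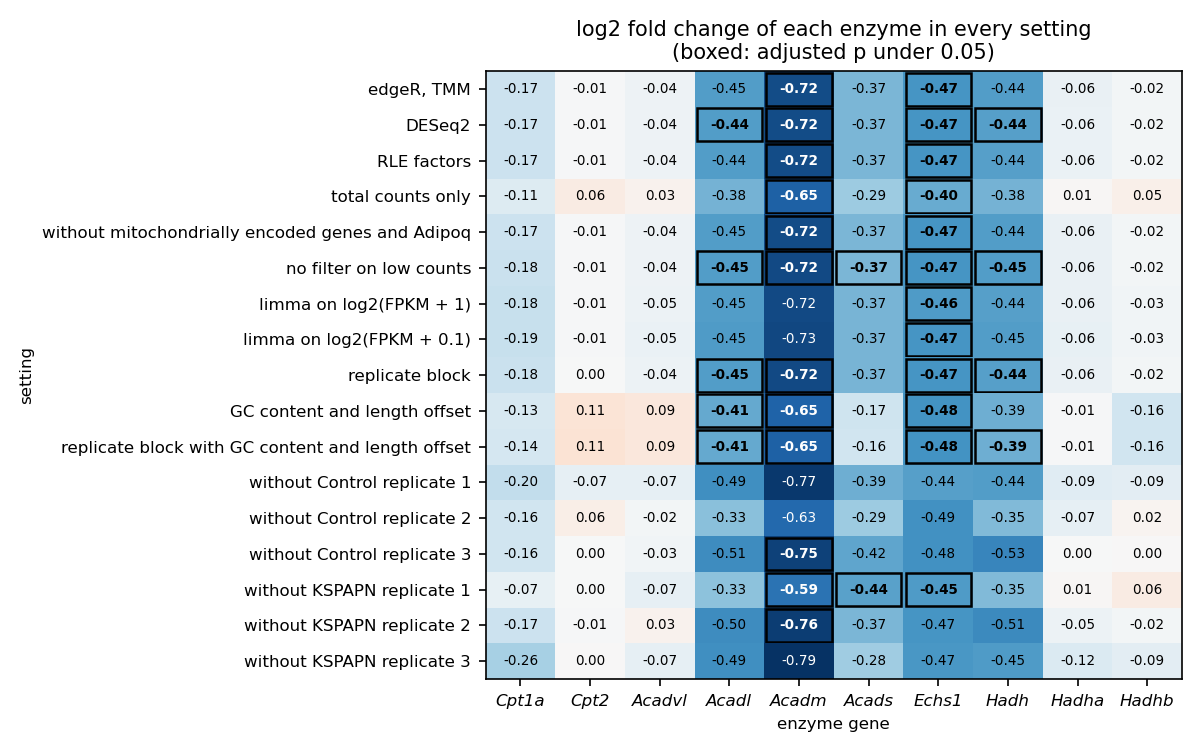
Log2 fold change of KSPAPN over Control for each enzyme (columns) in edgeR with TMM and in 16 other settings (rows), as numbers on a blue to red scale, boxed where the adjusted p was under 0.05. *Cpt1a*, *Acadl*, *Acadm*, *Acads*, *Echs1* and *Hadh* are below 0 in every setting, and *Cpt2*, *Acadvl*, *Hadha* and *Hadhb* change sign.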

How the data were processed

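Whole-kidney mRNA was sequenced in 6 libraries, grouped by their labels. The authors deposited whole-number counts per gene without normalization, and FPKM per gene. The submitters' processing notes name STAR 2.5, TopHat, HTSeq 0.6.1, DESeq2 and edgeR without roles, and which genome build, annotation and strand setting they used is not given in the sources used here. Without strand, reads from sequence that transcripts on opposite strands share cannot be told apart. *Acadvl* shares 8.26% of its 100-base stretches with *Dvl2* (at most 450 counts). The spans of *Echs1* and *Paox* overlap, but no 100-base stretch of *Echs1* was shared with another gene, and shorter stretches were not searched. Symbols and coordinates came from GENCODE M21 for 54495 of 54532 identifiers, and promoters from RefSeq (GRCm38.p6).

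Counts were tested with edgeR 4.0.16 in R 4.3.3 (TMM, filterByExpr with minimum count 10 and minimum total 15, two-sided quasi-likelihood test, Benjamini-Hochberg over 16017 genes), tested on simulated data. In that simulation the share of false calls was above what the threshold allows for edgeR, more so for DESeq2, and within it for limma. Lists were described by counts and medians, and ratios of FPKM compared by exact permutation (two-sided, 20 arrangements of the 6 libraries). The alternatives were DESeq2 1.42.0, limma 3.58.1 on log2 FPKM, other scaling, no filter, an offset for GC content and length, a replicate block and leaving out each library. The 10 enzymes had between 2665 and 20087 counts in a library. Reads have no molecular identifiers. Other steps ran in Python 3.11.15 with pandas 2.3.3 and matplotlib 3.10.9.

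The enzymes and lists were chosen with earlier results of these data known. Genes named were the 10 enzymes, *Adipoq*, the genes of each list past the threshold or otherwise its largest changes and levels, and the 5 nearest profiles, and 1 gene that this rule names is not reported here. Named outside that rule, with their values seen, were *Ppara*, *Ppargc1a*, *Etfdh*, *Acaca*, *Acacb*, *Slc34a1*, *Umod*, *Cyp11b1*, *Cyp11b2*, *Slc4a1*, *Slc12a3*, *Aqp3*, *Aqp2* and the overlapping or near-identical genes.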

Additional observations from a re-analysis of the deposited data

How the results depend on the processing

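Of 160 log2 fold changes of the 10 enzymes in alternatives, 124 kept their direction and side of the threshold, 10 lost a call, 11 gained one and 15 turned sign, all 15 in enzymes with a main value within 0.06 of 0. No enzyme was called higher in any setting. Where a call or sign changed, the cause was not tested. The median of all genes was 0.08 in place of 0.01 with total counts only, where *Cpt2* came to 0.063, *Acadvl* to 0.032, *Hadha* to 0.0093 and *Hadhb* to 0.046, the median of the enzymes to -0.20, and 195 genes were lower. DESeq2 called 189 genes higher, 731 lower and 4 enzymes lower. Without a filter, 301 genes were higher, 1038 lower and 5 enzymes lower among 29418 genes. limma on log2(FPKM + 1) called 10 higher, 118 lower and 1 enzyme, and on log2(FPKM + 0.1) 10 higher, 109 lower and 1 enzyme. With the offset for GC content and length, 99 genes were higher, *Cpt2* came to 0.11, *Acadvl* to 0.093 and the median of the enzymes to -0.16. Same-numbered libraries correlated at 0.0537, 0.154 and 0.173, so the numbers were not taken to pair libraries, although each library correlated best with its own number. A replicate block gave 224 genes higher, 705 lower and 4 enzymes lower, called *Etfa* and *Esrra* lower, and with the offset for GC content and length 191 higher, 492 lower, 4 enzymes lower, *Cpt2* at 0.12, *Acadvl* at 0.092 and a median of -0.16, and there *Acads* (-0.159) was no longer below *Hadhb* (-0.162). With 1 library left out, genes higher ranged from 5 to 162, genes lower from 34 to 571, enzymes lower from 0 to 3 and the median of the enzymes from -0.29 to -0.20. The lowest counts of genes called were without Control replicate 1. In the same fits *Cpt2* ranged from -0.073 to 0.055, *Acadvl* from -0.074 to 0.033, *Hadha* from -0.12 to 0.010, *Hadhb* from -0.087 to 0.063 and the log2 difference of *Acadl*/*Acads* from -0.21 to 0.11, turned by KSPAPN replicate 1. Ratios of CPM and FPKM differ by a constant for each pair, so this alternative could not move them, while with the offset for GC content and length *Hadha*/*Hadhb* turned from -0.036 to 0.15. The ratio of summed levels moved from 0.767 to 0.956 when divided by the proximal tubule markers, a setting added after seeing the data. That marker sum includes *Slc7a13*, a gene called lower, and the ratio without it was not computed. Over all genes, libraries of a group differed beyond counting error, with a chi-square per gene from 11 to 35.9, and for single enzymes this was not computed.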
